A study of Sus scrofa with 60 samples.

Results

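The nuclear receptors and transcription factors of the liver were followed here by their own mRNA. They were picked by a rule on gene symbols. This rule and the gene lists used below were set with earlier results of these data known. A probe-set was a member if its single symbol was PPARD, PPARG, ESR1, VDR, THRA, THRB or PROX1, began with NR followed by a digit and a letter, or belonged to the RXR, RAR (RARA, RARB or RARG), HNF, FOX, CEBP, GATA, SOX, STAT or KLF names, with KLF1 and KLF15 left out. This rule found 58 genes, of 6765 named on the array, read by 99 of the 23999 probe-sets that were not controls. The symbols FOXRED1, CEBPZOS and GATAD2A met the rule by their letters although none of them belongs to the DNA-binding families meant, and their 6 probe-sets are described apart. Of the genes the rule names, VDR and PROX1 had no member probe-set, and neither did NR1H4, NR1I3 or NR0B2, so these are not analysed here.

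Liver RNA came from German Landrace pigs whose mothers, gilts, received the adequate protein (AP) diet while pregnant. There were 15 fetuses at 94 days post conceptionem (dpc) and, in days post natum (dpn), 15 newborns at 1 dpn, 14 piglets at 28 dpn and 16 pigs at 188 dpn, with 1 Affymetrix porcine array for each of the 60 animals. The study's methods describe the fetuses as taken by Caesarean section in an experiment of their own. They give sib pairs balanced for sex at every stage, of unlike weight among fetuses and newborns only. The pigs of 28 and 188 dpn are described as fasted overnight, the males being castrated. No stage carried a genetic change, and the offspring of mothers on the high protein diet were not analysed here. Experiment cannot be told apart from stage where fetuses are compared with newborns, as all later stages came from the other experiment. Feeding state cannot be told apart from stage either, although the overnight fast was shared by the pigs of 28 and 188 dpn.

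Nuclear receptors are transcription factors that mostly bind a small fat-soluble ligand, such as a steroid, a retinoid, thyroid hormone, an oxysterol or a bile acid, and many of them bind DNA as a pair with a retinoid X receptor. In hepatocytes they share promoters with factors that need no ligand: HNF4A, the FOXA forkhead proteins and the C/EBP leucine zipper proteins, which together keep up the secretory and metabolic programme of the cell. STAT proteins carry cytokine and growth hormone signals from membrane receptors to the nucleus, and KLF proteins are zinc finger factors, several of which respond quickly to hormones. The mRNA of such a factor is not its activity, which also depends on ligand, phosphorylation and location.

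Levels are given as log2(intensity + 16), in the order lowest, median and highest animal or as mean ± SD, and a change is the later minus the earlier stage on that scale with its standard error (SE). Period I compares 1 dpn with 94 dpc, period II compares 28 dpn with 1 dpn, and period III compares 188 dpn with 28 dpn. A change was called at an adjusted p below 0.05 in limma, with Benjamini-Hochberg adjustment over all probe-sets tested in the period, and all p-values printed below are of this kind. A probe-set was tested where it lay above its array's median in 50% or more of the animals of either stage compared. One that passed only through its higher stage was picked partly for being high there, so its p-value is not free of that choice. Among called members this held for RARB in periods I and II and CEBPD Ssc.10025.2.S1_at in period I. In period II it held for GATA2, STAT4, FOXM1, NR0B1 and NR5A2 Ssc.29043.2.A1_at and Ssc.29043.3.S1_at. Listed genes with a stage at background carry the same limit, such as ANGPTL4, GHR and PPARA in period I and PPARA in period II. So does CYP3A29 in period II, as it did not pass the filter in period I. The counts of the gene lists include such genes. As a measure of background, the means of 17 Tag control probe-sets reached at most 5.86 in fetuses of 94 dpc, 6.29 in newborns, 5.73 in piglets of 28 dpn and 5.84 in pigs of 188 dpn. A change that starts or ends near these levels is a lower limit. Oligonucleotides respond differently, so levels of different genes are not set against each other.

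Every array had been scaled to nearly the same trimmed mean, 500.127 to 500.22, but array medians still ranged between 102 and 182 and were lower at the later stages. The 3'/5' signal ratio of actin, a sign of RNA integrity and labelling, had a log2 mean of 2.29 ± 0.34 in fetuses, 1.76 ± 0.31 in newborns, 3.54 ± 0.46 in piglets of 28 dpn and 4.01 ± 0.45 in pigs of 188 dpn (SD). Its values at 28 dpn did not overlap those at 1 dpn, so that in period II the ratio and the stage cannot be told apart. Where a called change of a named member was lost with this ratio in the fit, or with another scaling, that is stated beside it. For the listed pathway genes only the counts were recomputed: with the ratio in the fit, 14 were higher and 5 lower in period II, where 28 and 17 were called without it.

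Over the 4 stages, 51 of the 56 members tested changed by limma's moderated F test, which is 91.1% against 93.2% of all probe-sets tested. The share of members that changed was thus close to the background share. The 56 members stood for 41 genes. FOXA2, FOXP1, NR5A1, PPARD and STAT6 were the 5 members without a called difference among stages, with adjusted p of 0.31, 0.11, 0.11, 0.09 and 0.23. The distance between the highest and the lowest stage mean had a median of 0.91 over the members tested and 0.99 over all probe-sets tested. Of the members called, 22 had stage means at least 2-fold apart, a share that was not counted over all probe-sets. The lowest mean lay at 94 dpc for 9 of these, which include every CEBPD probe-set and FOXRED1. It lay at 188 dpn for 8, which include several probe-sets of NR5A2, so these counts are not counts of genes.

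In period I, 15 of 51 members tested were higher at 1 dpn and 15 were lower, which is 29.4% each, beside 23.9% higher and 41.1% lower among all probe-sets tested. In period II, 19 of 54 members were higher at 28 dpn and 14 were lower, or 35.2% and 25.9%, beside 28.5% and 39% of all probe-sets. In period III, 9 of 52 members were higher at 188 dpn and 12 were lower, or 17.3% and 23.1%, beside 15.5% and 24.1%. The median change of the members was -0.0011, 0.146 and -0.0013 in periods I, II and III, while that of all probe-sets tested was -0.1484, -0.0991 and -0.043. Changes of at least 2-fold were called for 8 members in period I (15.7%; all probe-sets 13.5%), for 8 in period II (14.8%; all probe-sets 18.3%) and for 0 in period III, where 3.63% of all probe-sets passed that size. Values of later and earlier animals were fully separate for 3 members in period I (5.88%; all probe-sets 9.99%), 6 in period II (11.1%; all probe-sets 11.4%) and 0 in period III (all probe-sets 1.24%).

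These splits depended on how arrays were scaled. With quantile normalization the median of all probe-sets shifted up by 0.113, 0.133 and 0.0539 in periods I, II and III, and with median centring by 0.172, 0.313 and 0.0615. Members higher and lower then numbered 17 and 11, 27 and 12, and 11 and 5 with quantile normalization, and 18 and 9, 34 and 8, and 12 and 6 with median centring. Among all probe-sets tested, 3761 were higher and 4248 lower in period I, 4628 and 4179 in period II and 2306 and 2527 in period III with quantile normalization. With median centring these were 4169 and 3729, 5929 and 3066, and 2533 and 2418.

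**Figure D1:**
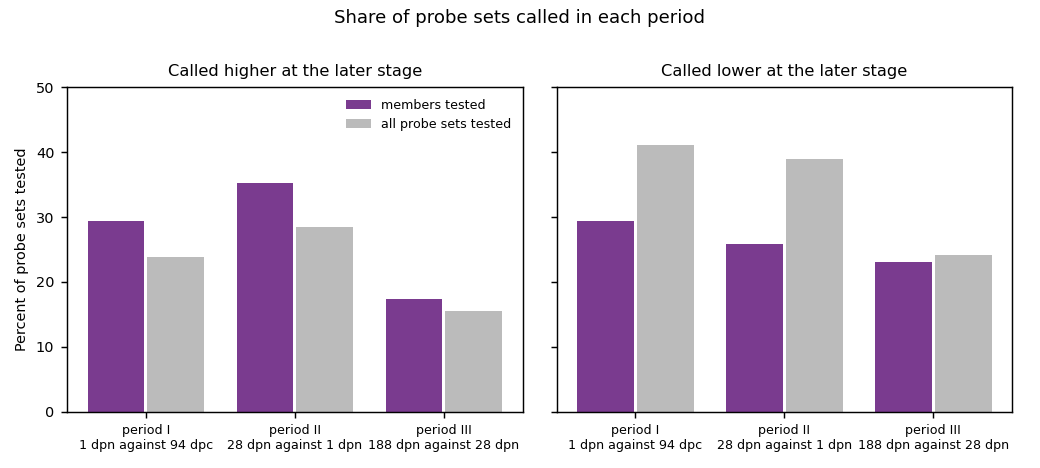
Percent of probe-sets tested that were called higher (left panel) or lower (right panel) at the later stage, for the members (purple) and for all probe-sets tested (grey), in each period. In period II 35.2% of the members and 28.5% of all probe-sets were higher at 28 dpn; 25.9% of the members and 39% of all probe-sets were lower.

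The 4 C/EBP genes were higher at 1 dpn than at 94 dpc. C/EBP proteins drive genes of gluconeogenesis, plasma protein secretion and the acute phase response, and CEBPA is known as the factor that holds hepatocytes in a differentiated, slowly dividing state. In period I, 8 of the 10 tested probe-sets of C/EBP, FOXA and HNF4A genes were higher at 1 dpn and 0 were lower, beside 23.9% higher and 41.1% lower among all probe-sets tested, with a median change of 0.54. The 10 include 3 probe-sets of CEBPD and 2 of HNF4A, so they stand for 7 genes. Hepatocyte markers moved less in that period: of 7 markers such as ALB and TTR, 1 was higher, 1 was lower and 5 were not called.

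CEBPD, which encodes a C/EBP protein induced by glucocorticoids and cytokines, was read by 3 probe-sets and all of them were higher at 1 dpn. The probe-set with the most signal read 10.25, 10.53 and 11.13 at 94 dpc, 10.78, 11.97 and 12.90 at 1 dpn, 12.37, 13.31 and 13.78 at 28 dpn, and 12.83, 13.79 and 14.01 at 188 dpn (lowest, median and highest animal). Its level was thus higher at each successive stage, with changes of 1.43 ± 0.16 (adjusted p = 1.5e-09), 1.18 ± 0.17 (4.5e-07) and 0.51 ± 0.13 (0.002) in periods I, II and III. The next probe-set, Ssc.10025.1.S1_at, read 9.08, 10.30 and 11.66 at 1 dpn, against 7.02, 7.96 and 8.80 at 94 dpc. No newborn lay as low as any fetus there, and the change was 2.34 ± 0.20, or 5.05-fold (adjusted p = 1.4e-11). In periods II and III that probe-set changed by 0.14 ± 0.21 and 0.20 ± 0.15 and was not called (adjusted p = 0.56 and 0.31). The third probe-set, Ssc.10025.2.S1_at, followed the first, with 1.42 ± 0.22, 0.93 ± 0.17 and 0.46 ± 0.17. The rise of period II was not called with the actin ratio in the fit for the first probe-set (0.62, adjusted p = 0.31), and for the third it became -0.084 (0.91). The period III call of the third was lost without the least correlated array per stage (0.40, adjusted p = 0.065), without the filter (0.067), in a fit to all 4 stages (0.066) and with the actin ratio (0.35).

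CEBPB, the C/EBP gene best known for the acute phase and for liver regeneration, was higher at 1 dpn than at 94 dpc and higher again at 188 dpn than at 28 dpn. It read 10.62, 11.88 and 13.32 at 94 dpc, 11.99, 12.54 and 13.27 at 1 dpn, 12.10, 12.69 and 13.20 at 28 dpn and 13.12, 13.57 and 14.22 at 188 dpn. The fetuses covered a wide range that took in every newborn, with an SD of 0.86 among fetuses, where the other stages had between 0.30 and 0.41. The changes were 0.83 ± 0.23 in period I (adjusted p = 0.0026) and 0.90 ± 0.11 in period III (1.6e-07), while in period II it was 0.0004 ± 0.13.

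CEBPA was higher at 1 dpn (8.60 ± 0.43) than at 94 dpc (7.98 ± 0.42), by 0.61 ± 0.15 (adjusted p = 0.00073). It was higher again at 28 dpn (9.03 ± 0.25), by 0.44 ± 0.13 (0.0042, and 1.17 with the actin ratio in the fit), and lower at 188 dpn (8.67 ± 0.35), by -0.36 ± 0.11 (0.011). The calls of periods I and III were lost with the actin ratio in the fit (adjusted p = 0.12 in both), and that of period III also with quantile normalization (-0.26, 0.058). CEBPG, a partner of other leucine zipper proteins in the amino acid stress response, peaked at 1 dpn: it was higher there than at 94 dpc by 0.47 ± 0.12 (0.001), lower at 28 dpn by -0.58 ± 0.16 (0.0016) and lower at 188 dpn by -0.61 ± 0.18 (0.0065). Its call in period II was lost with median centring (-0.27, adjusted p = 0.13) and with the actin ratio (-0.22, 0.73).

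HNF4A, an orphan receptor by sequence and a central regulator of hepatocyte genes, was higher from 28 dpn on in the probe-set with the most signal. That probe-set read 11.45, 12.13 and 12.51 at 94 dpc, 11.67, 12.27 and 12.56 at 1 dpn, 12.58, 12.93 and 13.45 at 28 dpn and 12.55, 13.12 and 13.44 at 188 dpn. The lowest piglet of 28 dpn lay just above the highest newborn. The change in period II was 0.79 ± 0.10, or 1.73-fold (adjusted p = 7.4e-08), and it was 1.22 with the actin ratio in the fit (0.001). In periods I and III it was 0.05 ± 0.10 and 0.07 ± 0.10. The second HNF4A probe-set gave another picture, with 0.40 ± 0.11 in period I (0.0018) and -0.23 ± 0.14 in period II, which was not called (adjusted p = 0.16). The array annotation does not say which transcript form each of the pair reads.

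The FOXA forkhead proteins open closed chromatin in the developing and adult liver. FOXA1 was highest at 1 dpn: 9.89 ± 0.31 at 1 dpn against 9.51 ± 0.28 at 94 dpc, a change of 0.38 ± 0.11 (adjusted p = 0.0033). It was then lower at 28 dpn (9.36 ± 0.17) by -0.53 ± 0.10 (2.3e-05) and at 188 dpn (8.94 ± 0.20) by -0.42 ± 0.08 (4.2e-05). The call of period II was lost with median centring (-0.22, adjusted p = 0.054) and with the actin ratio (-0.48, 0.18). FOXA2 had no called change, with 0.02 ± 0.13, 0.28 ± 0.22 and -0.30 ± 0.22 in periods I, II and III, and its animals at 28 dpn ranged between 8.98 and 11.56.

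**Figure D2:**
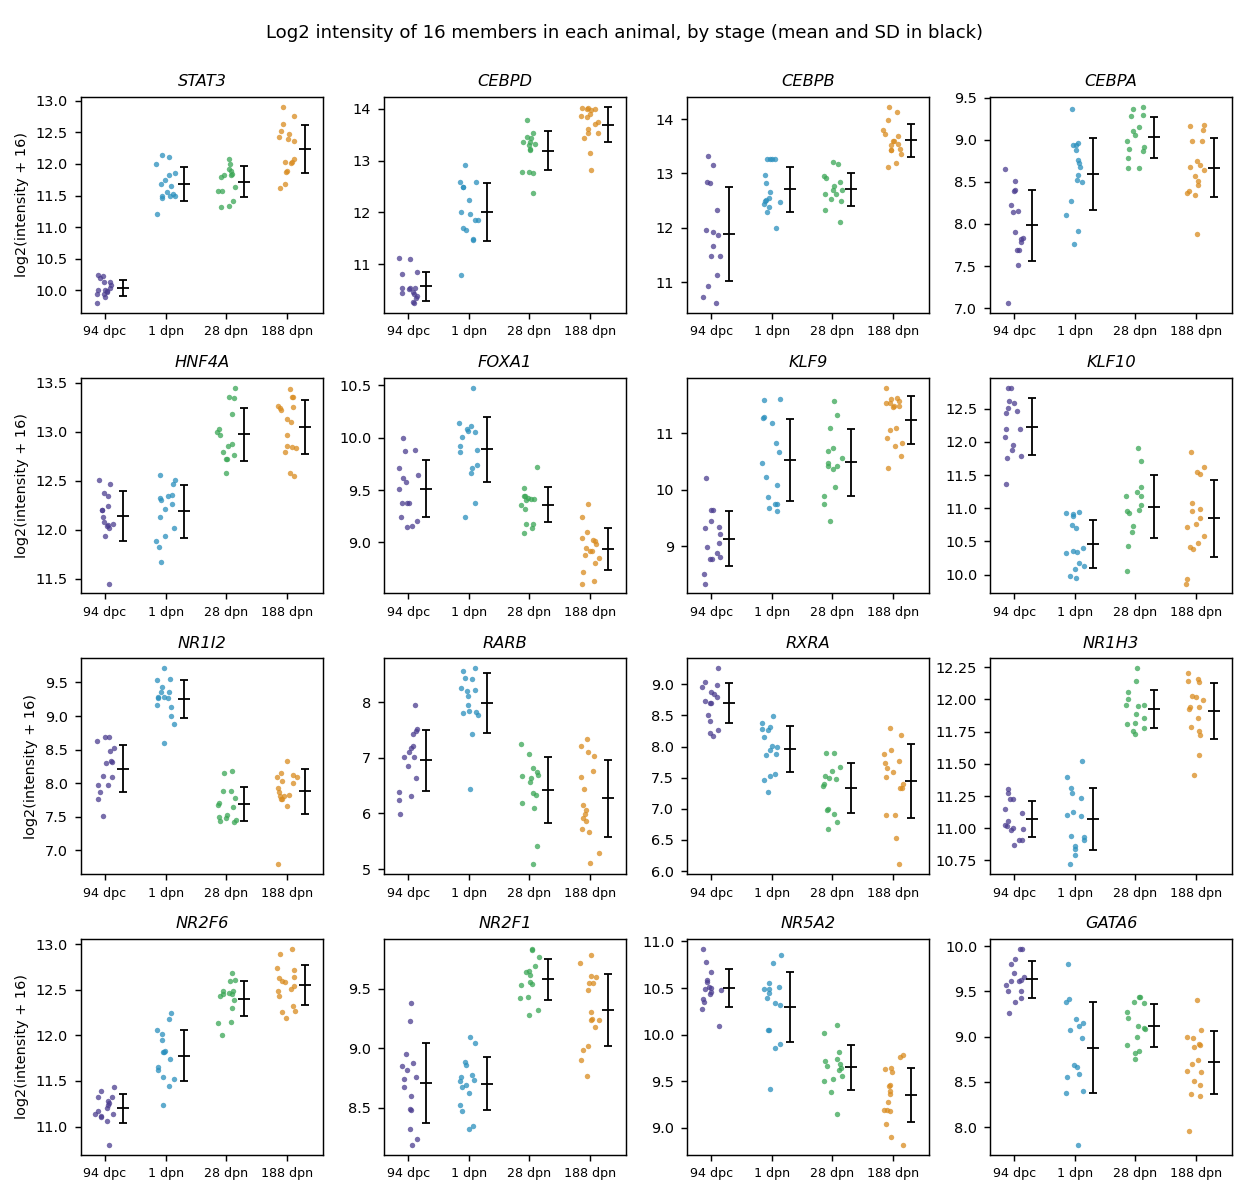
Log2(intensity + 16) of 16 members in each of the 60 animals (coloured points) at 94 dpc, 1 dpn, 28 dpn and 188 dpn; black bars give the stage mean and SD, and each panel has its own vertical range. STAT3 lay at 11.21 or more in every newborn and at 10.24 or less in every fetus, and NR1I2 was highest at 1 dpn, at 8.60 to 9.71.

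Receptors with a known ligand moved in both directions in periods I and II, and in period III none of the 7 probe-sets tested, which read 6 genes, was called (0 higher and 0 lower). In period I 2 of 7 were higher and 2 lower at 1 dpn, and in period II 3 of 7 were higher and 3 lower at 28 dpn. Among all probe-sets tested, 23.9% were higher and 41.1% lower in period I. These shares were 28.5% and 39% in period II, and 15.5% and 24.1% in period III.

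NR1I2 encodes the pregnane X receptor, PXR, which senses drugs and bile acids and induces cytochromes of the CYP3A family. It read 7.51, 8.31 and 8.69 at 94 dpc, 8.60, 9.29 and 9.71 at 1 dpn, 7.42, 7.66 and 8.18 at 28 dpn and 6.79, 7.89 and 8.33 at 188 dpn. The newborns stood above the other stages: all were above every piglet of 28 dpn, and only the lowest reached into the range of the fetuses. The level was higher at 1 dpn by 1.04 ± 0.12, or 2.06-fold (adjusted p = 3e-09), and lower at 28 dpn by -1.56 ± 0.10, or 2.95-fold (4.8e-14), a call that was kept with the actin ratio in the fit (-1.01, 0.004).

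RARB, a retinoic acid receptor whose own gene responds to retinoic acid, had a like course. It read 5.98, 7.02 and 7.96 at 94 dpc, 6.45, 8.11 and 8.61 at 1 dpn, 5.09, 6.60 and 7.26 at 28 dpn and 5.10, 6.11 and 7.34 at 188 dpn. A single newborn at 6.45 lay within the range of 28 dpn, and the readings at 28 and 188 dpn came close to background. RARB passed the filter through the newborns alone: 14 lay above their array's median, against 2 fetuses and 1 piglet of 28 dpn. The change was 1.04 ± 0.19 in period I (2.05-fold, adjusted p = 1.8e-05) and -1.57 ± 0.20 in period II (2.97-fold, 5.2e-08). With the actin ratio in the fit period II gave -0.48 and no call (adjusted p = 0.50).

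The retinoid X receptors, which pair with PXR, the retinoic acid receptors, LXR, the PPARs and the thyroid hormone receptors, went opposite ways. RXRA averaged 8.69 ± 0.32 in fetuses, 7.96 ± 0.37 in newborns, 7.34 ± 0.40 in piglets of 28 dpn and 7.44 ± 0.59 in pigs of 188 dpn. It was lower at 1 dpn by -0.74 ± 0.13 (adjusted p = 6.1e-06) and lower at 28 dpn by -0.62 ± 0.14 (0.00025), which became -1.08 with the actin ratio in the fit (0.027). The other RXRA probe-set read near background at each stage and was not tested. RXRB was higher at 28 dpn (8.26 ± 0.21) than at 1 dpn (7.54 ± 0.83), by 0.72 ± 0.22 (0.0043), with a newborn as low as 5.16, and with the actin ratio the change was 0.20 and was not called (0.83).

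NR1H3 encodes the oxysterol receptor LXR alpha, a regulator of cholesterol efflux and fatty acid synthesis in hepatocytes and macrophages. It read 10.87, 11.02 and 11.31 at 94 dpc, 10.72, 11.10 and 11.53 at 1 dpn, 11.73, 11.92 and 12.24 at 28 dpn and 11.41, 11.94 and 12.20 at 188 dpn. The earlier and the later pair of stages formed a lower and a higher level, with all piglets of 28 dpn above all newborns. The change in period II was 0.85 ± 0.08, or 1.81-fold (adjusted p = 2.3e-10), and 1.01 with the actin ratio in the fit (0.0012), whereas it was -0.001 ± 0.08 in period I and -0.01 ± 0.08 in period III. The spread between animals was small, with SDs between 0.14 and 0.24. Macrophage markers were also higher at 28 dpn: 4 of 7 were higher and 1 was lower, and their summed intensity ranged from 42187 to 62979 at 28 dpn, against 23509 to 33807 at 1 dpn. None of the 7 lay below the array median at either stage (0 genes), and their part in the NR1H3 result was not tested. In bulk tissue, fewer cells of a type and less RNA per cell cannot be told apart.

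THRA, a thyroid hormone receptor, was lower at 1 dpn (8.77 ± 0.40) than at 94 dpc (9.09 ± 0.23), by -0.32 ± 0.12 (adjusted p = 0.018), and higher at 28 dpn (9.46 ± 0.28) by 0.69 ± 0.13 (2.3e-05). Both calls were lost with the actin ratio in the fit (adjusted p = 0.30 and 0.55), and that of period I with quantile normalization (0.22) and median centring (0.29) as well. THRB, the thyroid hormone receptor form that predominates in the adult liver of rodents, did not pass the filter: its brighter probe-set averaged between 6.77 and 7.12 over the stages and lay above the array median in 0 fetuses, 3 newborns, 4 piglets of 28 dpn and 5 pigs of 188 dpn. PPARD changed by -0.23 ± 0.17, 0.26 ± 0.18 and 0.19 ± 0.17 and was not called in any period (adjusted p between 0.19 and 0.39).

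Among the orphan receptors, for which a natural ligand is disputed or unknown, NR2F6 was higher and NR2F2 lower after birth. NR2F6 and its relatives NR2F1 and NR2F2 are the COUP receptors, mostly repressors that compete with other receptors for their sites. NR2F6 read 10.80, 11.21 and 11.44 at 94 dpc, 11.23, 11.82 and 12.25 at 1 dpn, 12.00, 12.45 and 12.69 at 28 dpn and 12.19, 12.57 and 12.95 at 188 dpn. Its stage medians thus stood in order of age. The change was 0.58 ± 0.09 in period I (adjusted p = 1e-06) and 0.62 ± 0.10 in period II (1.2e-06), and 0.15 ± 0.08 in period III was not called (0.16).

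NR2F2, which in the embryo is known from veins and mesenchyme, was lower at 1 dpn in all 3 probe-sets tested, by -0.84 ± 0.14, -0.54 ± 0.10 and -0.42 ± 0.17 (adjusted p = 2.7e-06, 1.4e-05 and 0.028), the last of which lost its call with either scaling (0.24 and 0.21), with the actin ratio in the fit (0.056) and without the filter (0.05). The brightest of them read 9.44 ± 0.43 at 1 dpn and 10.28 ± 0.32 at 94 dpc. In period III 2 of the 3 were lower at 188 dpn, by -0.35 ± 0.08 and -0.31 ± 0.11 (0.0012 and 0.022), and the second call was lost under both scalings (0.098 and 0.07), with the actin ratio (0.079), in a fit to all 4 stages (0.08) and without the least correlated array per stage (-0.25, 0.051). Back in period I, 4 of 8 stellate and fibroblast markers tested were lower and 0 higher, beside 41.1% lower and 23.9% higher among all probe-sets. Their summed intensity was 5450 to 20146 at 1 dpn and 10616 to 18804 at 94 dpc. Their part in the NR2F2 change was not tested.

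NR2F1 stayed level over birth and was higher at 28 dpn. It read 8.19, 8.74 and 9.38 at 94 dpc, 8.32, 8.72 and 9.09 at 1 dpn, 9.28, 9.59 and 9.83 at 28 dpn and 8.76, 9.28 and 9.79 at 188 dpn. The piglets of 28 dpn all lay above the newborns, and the change was 0.88 ± 0.08, or 1.84-fold (adjusted p = 1.2e-10), and 1.04 with the actin ratio (0.00088). In period III it was lower by -0.26 ± 0.10 (0.031), a call lost with quantile normalization (0.11), with median centring (0.081) and without the filter (0.069). NR0B1, known as DAX-1 from the adrenal and gonads, scattered between 4.32 and 8.56 over all animals and was higher at 28 dpn by 0.97 ± 0.39 (0.027), with its mean at 1 dpn (6.14) at background and a reversed change of -1.402 with the actin ratio (0.27). NR5A1, an adrenal and gonadal factor, had no called change.

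NR5A2 encodes LRH-1, which works with HNF4A on the genes of bile acid synthesis. All 5 of its probe-sets passed the filter, and all 5 were lower at 28 dpn than at 1 dpn, while none of them was called in period I (0 of 5), where the changes lay between -0.20 and 0.14. The probe-set Ssc.29043.2.A1_at read 7.68, 8.13 and 9.00 at 94 dpc, 7.32, 8.32 and 9.23 at 1 dpn, 6.16, 6.58 and 7.17 at 28 dpn and 5.93, 6.50 and 7.72 at 188 dpn. The highest piglet of 28 dpn lay under the lowest newborn, and the change was -1.73 ± 0.17, or 3.33-fold (adjusted p = 1.4e-10). The other 4 changed by -1.09 ± 0.14, -1.003 ± 0.19, -0.77 ± 0.14 and -0.65 ± 0.12 (adjusted p = 4.5e-08, 3.7e-05, 1.4e-05 and 2.1e-05). With the actin ratio in the fit Ssc.29043.2.A1_at kept its call (-1.78, 0.0037), whereas the other 4 gave -0.43, -0.74, 0.156 and -0.29 with none called (0.37, 0.30, 0.76 and 0.51). In period III 3 were tested and 1 was called, the brightest, at -0.30 ± 0.10 (0.018), which was lost with either scaling (0.062 in both) and with the actin ratio (0.072).

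**Figure D3:**
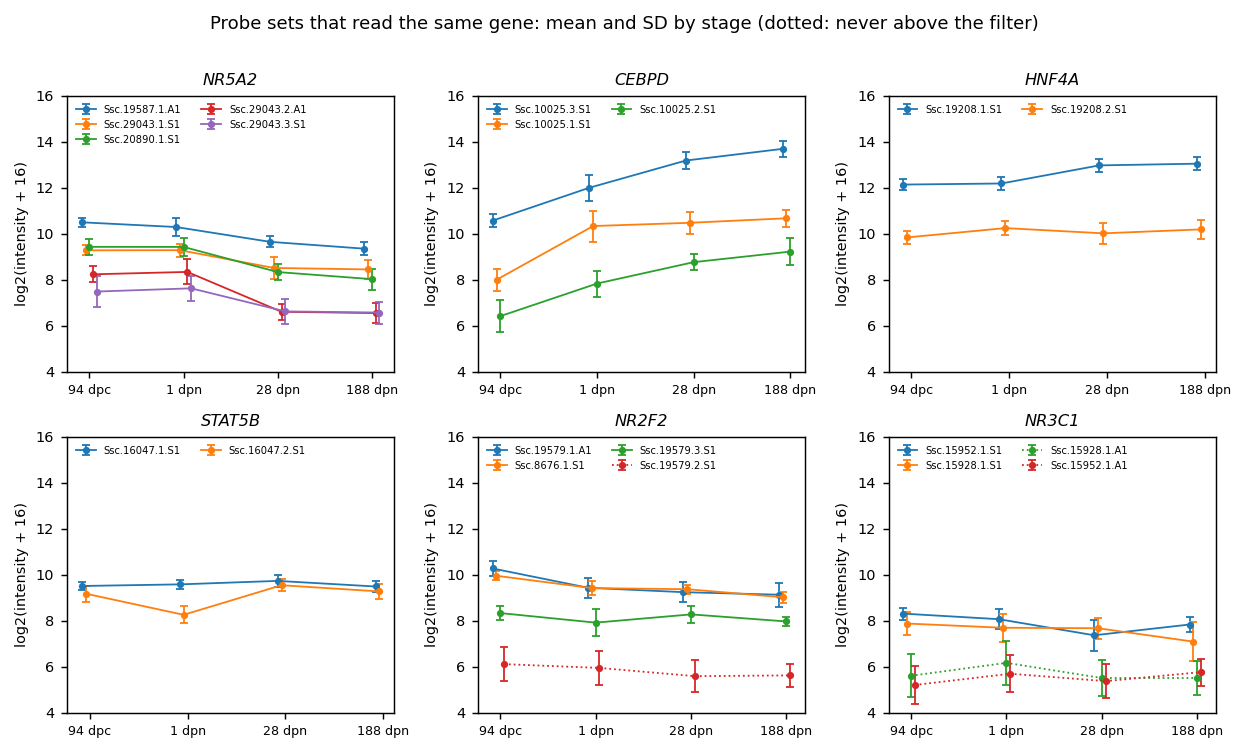
Stage mean and SD of log2(intensity + 16) for each probe-set of NR5A2, CEBPD, HNF4A, STAT5B, NR2F2 and NR3C1; solid lines passed the filter and dotted lines did not. The 5 NR5A2 probe-sets share a lower level at 28 dpn than at 1 dpn, whereas the HNF4A pair and the STAT5B pair part from each other at single stages.

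The glucocorticoid receptor gene NR3C1, whose product carries the cortisol surge before birth into gene expression, had no called change in period I in either of the 2 probe-sets tested (-0.24 ± 0.13 and -0.18 ± 0.20, adjusted p = 0.11 and 0.42). The brighter read 7.37 ± 0.68 at 28 dpn and 8.07 ± 0.44 at 1 dpn, a change of -0.70 ± 0.20 (adjusted p = 0.0031), and it was higher at 188 dpn (7.84 ± 0.34) by 0.47 ± 0.18 (0.042). The second probe-set gave -0.02 ± 0.19 in period II, which was not called (adjusted p = 0.93). In period III it gave -0.58 ± 0.24, opposite in sign to the first and not called (0.052). The period II call of the first was lost with quantile normalization (-0.45, 0.067), median centring (-0.39, 0.089) and the actin ratio (-1.14, 0.11), and that of period III without the filter (0.081), with a pseudocount of 1 (0.051) and with the actin ratio (0.15).

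GATA4 and GATA6 bind the promoters of many liver genes, and in the mouse embryo they are needed for the liver bud to grow. GATA6 was lower at 1 dpn (8.88 ± 0.51) than at 94 dpc (9.63 ± 0.21), by -0.75 ± 0.14 (adjusted p = 1.8e-05), and lower at 188 dpn than at 28 dpn by -0.41 ± 0.11 (0.0038), the second of which was lost with the actin ratio (-0.27, 0.069). GATA4 changed by -0.002 ± 0.13 in period I and was higher at 28 dpn (9.37 ± 0.22) than at 1 dpn (8.59 ± 0.36), by 0.79 ± 0.11 (3.7e-07), a call kept with the actin ratio (0.92, 0.023). GATA2, a factor of blood precursors, mast cells and endothelium, read 5.13, 6.78 and 7.74 at 94 dpc, 5.01, 6.10 and 7.35 at 1 dpn, 6.85, 7.45 and 7.81 at 28 dpn and 5.16, 7.16 and 8.14 at 188 dpn. Its newborns lay at background on average, and the change of 1.37 ± 0.18 in period II (2.58-fold, 8.1e-08) is a lower limit, which was not called with the actin ratio (0.99, 0.12). Endothelial markers moved both ways in period II, 3 of 8 higher and 4 lower, and their part was not tested. No SOX gene passed the filter in any period.

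STAT3 was higher in every newborn than in any fetus. It carries the signal of interleukin-6 and its relatives and turns on the acute phase genes of hepatocytes. STAT3 read 9.80, 10.00 and 10.24 at 94 dpc, 11.21, 11.65 and 12.14 at 1 dpn, 11.31, 11.81 and 12.09 at 28 dpn and 11.62, 12.22 and 12.90 at 188 dpn. Fetuses and newborns were almost 1 log2 unit apart at their nearest, and the spread among fetuses was small (SD 0.13). The change in period I was 1.64 ± 0.08, or 3.13-fold (adjusted p = 2.1e-17), and it was 0.03 ± 0.10 in period II and 0.52 ± 0.12 in period III (0.00075).

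STAT5A and STAT5B encode near-identical proteins that carry the growth hormone and prolactin signal, and their probe-sets may partly read both genes. STAT5A was lower at 1 dpn by -0.68 ± 0.14 (adjusted p = 9.9e-05), higher at 28 dpn by 0.80 ± 0.14 (1.1e-05) and lower at 188 dpn by -0.31 ± 0.11 (0.026). The STAT5B probe-set Ssc.16047.2.S1_at had the same dip at 1 dpn: 8.40, 9.19 and 9.69 at 94 dpc, 7.56, 8.38 and 8.79 at 1 dpn, 9.10, 9.56 and 10.04 at 28 dpn and 8.81, 9.22 and 10.11 at 188 dpn. All piglets of 28 dpn lay above all newborns, with a change of -0.92 ± 0.13 in period I (2e-07) and 1.29 ± 0.12, or 2.44-fold, in period II (7.7e-11). The brighter STAT5B probe-set changed by 0.07 ± 0.07 and 0.15 ± 0.09 in these periods and was not called (adjusted p = 0.42 and 0.14), so the dip was seen in 1 of the pair. With the actin ratio in the fit the period II change of STAT5B Ssc.16047.2.S1_at was 1.62 (0.00035) and that of STAT5A 0.47 (0.37). The STAT5 calls of period III were lost under both scalings (adjusted p between 0.071 and 0.16), and those of STAT5B also with the actin ratio (0.26 and 0.16) and without the least correlated array per stage (-0.24 and -0.27, 0.053 and 0.056). Without the filter all 3 were lost (0.057, 0.078 and 0.084), and in a fit to all 4 stages STAT5A and STAT5B Ssc.16047.2.S1_at were (0.052 and 0.063).

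STAT4, a factor of lymphocytes in the main, was higher at 28 dpn (7.25 ± 0.24) than at 1 dpn (6.68 ± 0.44), by 0.57 ± 0.13 (adjusted p = 0.00038), and was not called with the actin ratio (0.32, 0.53). Lymphocyte markers were higher at that age too, in 2 of 3 genes tested, with a summed intensity of 607 to 2079 at 28 dpn and 452 to 921 at 1 dpn, although 6 of the 9 on the array were below the array median at 28 dpn and 8 at 1 dpn. Their part in the STAT4 change was not tested. STAT2, a partner in the interferon response, was lower at 188 dpn by -0.42 ± 0.12 (0.0072).

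KLF10 and KLF9 changed in opposite directions over birth. KLF10 is an early response gene of TGF-beta and follows the circadian clock in the liver of mice. It read 11.36, 12.20 and 12.82 at 94 dpc, 9.95, 10.36 and 10.95 at 1 dpn, 10.06, 11.01 and 11.91 at 28 dpn and 9.87, 10.81 and 11.85 at 188 dpn. Every newborn lay under every fetus, with a change of -1.77 ± 0.14, or 3.42-fold (adjusted p = 1.7e-12). It was higher again at 28 dpn by 0.57 ± 0.15 (0.0017), which was not called with the actin ratio (0.99, 0.065).

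KLF9, induced by thyroid hormone and glucocorticoids, was higher at 1 dpn and higher again at 188 dpn. It read 8.34, 9.06 and 10.20 at 94 dpc, 9.63, 10.48 and 11.60 at 1 dpn, 9.45, 10.45 and 11.57 at 28 dpn and 10.38, 11.47 and 11.81 at 188 dpn. Most fetuses lay below all newborns. The change was 1.40 ± 0.21, or 2.63-fold, in period I (adjusted p = 1.1e-06), -0.04 ± 0.23 in period II and 0.75 ± 0.18 in period III (0.0011). A second probe-set with the KLF9 symbol carries another gene ID and did not pass the filter.

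KLF11, which is known for control of the insulin gene, was read by 2 probe-sets that moved alike. They were lower at 1 dpn by -0.39 ± 0.15 and -0.78 ± 0.18 (adjusted p = 0.025 and 0.0003) and higher at 188 dpn by 0.54 ± 0.13 and 0.62 ± 0.16 (0.0012 and 0.0021), and the smaller fall was lost with either scaling (0.25 and 0.20). KLF13 was lower at 1 dpn by -0.40 ± 0.13 (0.0081), a call lost with median centring (0.12) and with the actin ratio (0.055). Over the 5 KLF probe-sets tested, 1 was higher and 4 were lower in period I, where 23.9% of all probe-sets were higher and 41.1% lower, 1 was higher in period II (28.5% of all), and 3 were higher in period III (15.5% of all). Of these 5, 2 read KLF11.

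Markers of fetal blood formation fell over birth beside these changes. All 8 erythroid markers on the array were lower at 1 dpn, with a summed intensity of 1442 to 5201 at 1 dpn and 10369 to 45643 at 94 dpc, and all 9 neutrophil and megakaryocyte markers were lower as well, with 1892 to 14776 at 1 dpn and 12416 to 35390 at 94 dpc. Of the erythroid markers, 4 lay below the array median at 1 dpn and 0 did so at 94 dpc. Their part in the falls of KLF10, GATA6, STAT5A and STAT5B was not tested.

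Among the other forkhead genes, FOXO1, which insulin drives out of the nucleus and which turns on gluconeogenesis, varied little between animals (SD 0.11 to 0.27). It was lower at 1 dpn by -0.32 ± 0.08 (adjusted p = 0.0013), a call lost with median centring (0.11) and kept with the actin ratio (-0.413, 0.0019). It was higher at 28 dpn by 0.30 ± 0.09 (0.0027), a call lost with the actin ratio (0.16). FOXM1, a factor of the G2 and M phases of the cell cycle, was lower at 28 dpn (6.38 ± 0.65) than at 1 dpn (7.31 ± 0.97), by -0.93 ± 0.29 (0.0058), with the newborns spread between 4.64 and 8.46. That call was lost with quantile normalization (-0.63, 0.053), median centring (-0.62, 0.057) and the actin ratio (-1.55, 0.13). Cell division markers were lower in the same period in 5 of 7 genes tested and higher in 0, with a summed intensity of 1094 to 4421 at 28 dpn and 1484 to 8769 at 1 dpn, and their part in the FOXM1 change was not tested. FOXN3 had no called change between successive stages, and FOXP1 had none either.

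The members caught by name alone moved as follows. FOXRED1, a helper of complex I assembly in mitochondria, was higher at 1 dpn in both probe-sets, by 0.78 ± 0.08 and 0.83 ± 0.11 (adjusted p = 9.6e-10 and 1.4e-07). In period II they were called in opposite directions, at 0.25 ± 0.09 and -0.38 ± 0.13 (0.012 and 0.0095). The second lost its call with median centring (-0.062, 0.68), and with the actin ratio neither was called and the second changed sign (0.31 and 0.378). Of 28 combinations of gene and period with several tested probe-sets, this was the 1 with calls both ways. GATAD2A, a subunit of the NuRD repressor complex, was lower at 1 dpn in both probe-sets, by -0.52 ± 0.11 and -0.36 ± 0.08 (0.00013 in both), and the smaller was lost with either scaling (0.068 and 0.053). Its brighter probe-set was higher at 28 dpn by 0.59 ± 0.11 (2.8e-05), lost with the actin ratio (0.061), and the other was not called there (0.98). CEBPZOS was lower at 28 dpn by -0.55 ± 0.14 (0.001), a call lost with median centring (-0.235, 0.12) and the actin ratio (-0.323, 0.56).

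Some members read low at every stage. For 17 genes no probe-set passed the filter over the 4 stages: ESR1, FOXL2, FOXO3, FOXP3, FOXS1, GATA3, KLF2, KLF4, NR4A2, NR4A3, PPARG, RARA, RXRG, SOX10, SOX6, SOX9 and THRB. Their 24 probe-sets had stage means between 4.58 and 7.17, with a median over the 60 arrays of 5.91. PPARG, the receptor of fat cells, averaged between 4.73 and 5.45 over the stages and lay above the array median in 0 animals of any stage. ESR1, an estrogen receptor, averaged 7.17 at 1 dpn, where 5 newborns lay above the array median. A low reading on such an array does not show that the mRNA is absent.

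**Figure D4:**
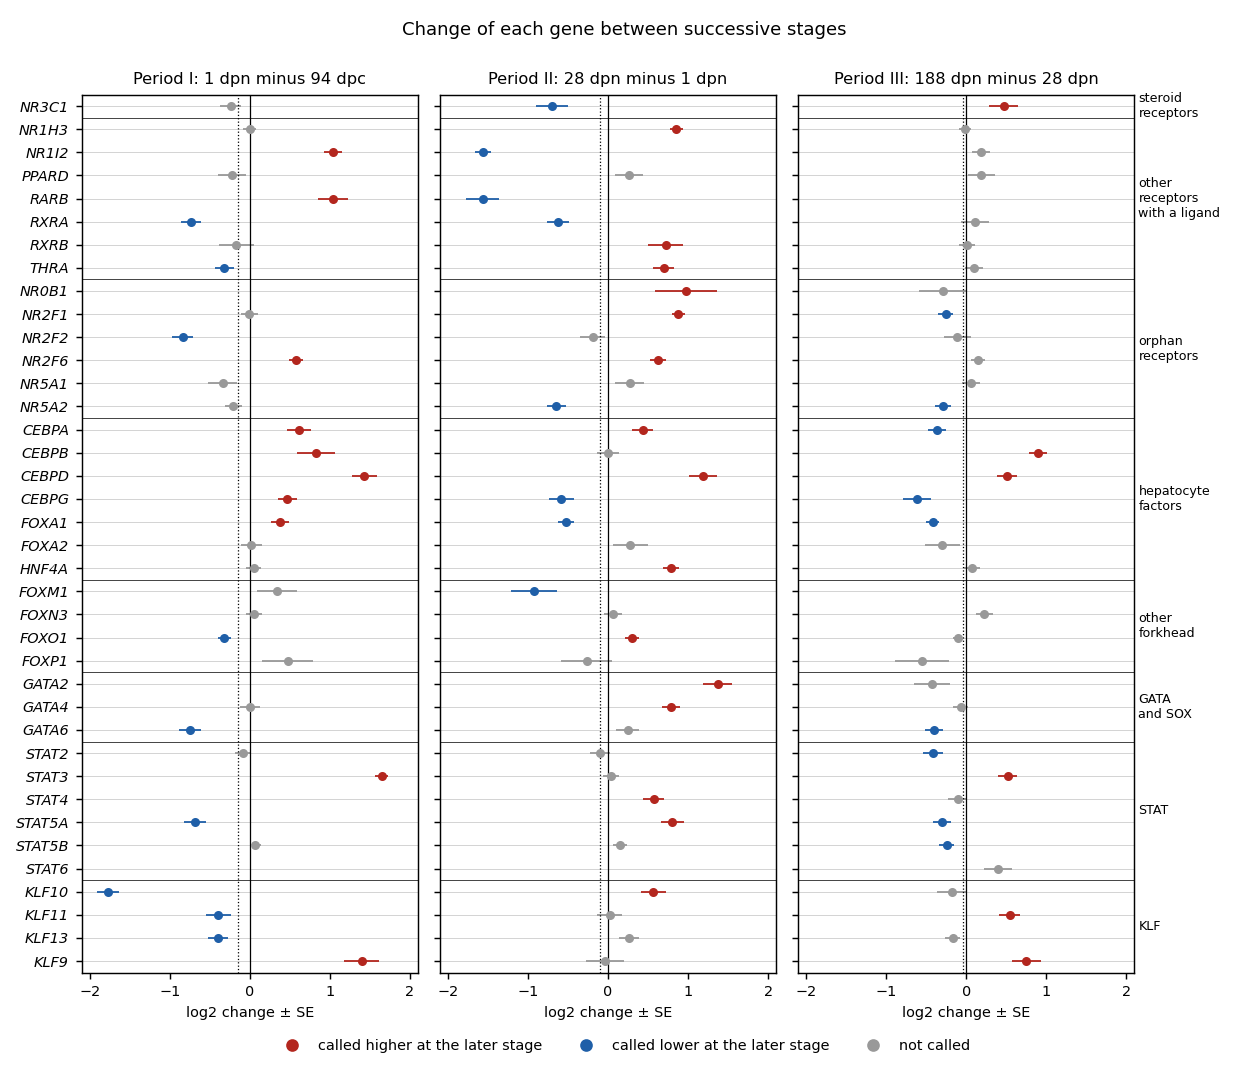
Change between successive stages (later minus earlier, log2, with SE) for the brightest tested probe-set of each gene, by family; red was called higher at the later stage, blue lower and grey not called. The solid vertical line marks 0 and the dotted line the median of all probe-sets tested in that period (-0.1484, -0.0991 and -0.043); points reach 1.64 for STAT3 and -1.77 for KLF10 in period I.

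Coregulators, the proteins that receptors recruit to open or close chromatin, were called lower at 1 dpn in 6 of 10 genes tested from the list and higher in 1, beside 41.1% lower and 23.9% higher among all probe-sets. Their median change was -0.61 in period I, where that of all probe-sets was -0.1484. NCOA4, which also steers ferritin to the lysosome, averaged 11.55 at 1 dpn and 12.92 at 94 dpc, a change of -1.37 ± 0.11 (adjusted p = 2.5e-12), and NCOA2, a p160 coactivator, averaged 9.89 and 11.19 at these stages, a change of -1.30 ± 0.14 (7.4e-10). PPRC1 and TRIM24 were lower by -1.13 ± 0.13 and -0.86 ± 0.15. In period II 3 were higher and 5 lower, beside 28.5% higher and 39% lower among all probe-sets. One of the lower was PPARGC1A, the coactivator PGC-1 alpha of gluconeogenesis and mitochondria, at 7.49 at 28 dpn and 8.48 at 1 dpn (-0.98 ± 0.19, 3.4e-05). In period III 3 were higher and 3 lower, beside 15.5% higher and 24.1% lower among all probe-sets, and PPARGC1A was higher at 188 dpn by 0.60 ± 0.17 (0.0051). NCOA4 is also known from maturing red cells, whose markers fell in period I as given above, and their part in its change was not tested.

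Of the genes around PXR, CAR and the bile acid receptor that were tested, 6 of 9 were higher and 0 lower in period I (median 0.91), 8 of 12 were higher and 3 lower in period II (median 0.98), and 5 of 12 were higher, 1 lower and 6 not called in period III. Among all probe-sets tested, 23.9% were higher and 41.1% lower in period I (median -0.1484). These shares were 28.5% and 39% in period II (median -0.0991), and 15.5% and 24.1% in period III. CYP3A39, a drug-metabolizing cytochrome of the kind PXR controls, averaged 11.00 at 1 dpn and 7.16 at 94 dpc (3.84 ± 0.29, adjusted p = 4.6e-13), and at 28 dpn it averaged 15.19, higher by 4.18 ± 0.21 (3.7e-17). CYP3A29 averaged 13.83 at 28 dpn and 7.46 at 1 dpn, a change of 6.37 ± 0.22 (1.3e-20). NR1I2 itself was lower at 28 dpn than at 1 dpn, as given above, so the receptor mRNA and these cytochrome mRNAs moved in opposite directions in period II. The transporters ABCB1 and ABCC2 moved with NR1I2, higher at 1 dpn by 1.62 ± 0.15 and 0.81 ± 0.10 and lower at 28 dpn by -1.08 ± 0.17 and -1.06 ± 0.12. In period III CYP2B22 averaged 10.24 at 188 dpn and 7.36 at 28 dpn (2.88 ± 0.26, 7.1e-10), and CYP27A1 of bile acid synthesis was higher by 0.71 ± 0.08 (4e-08). CYP3A genes are close copies of each other, so their probe-sets may share signal.

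Genes under PPAR, LXR and thyroid hormone control were higher at 1 dpn in 6 of 11 cases and lower in 1, with a median of 0.96. Of all probe-sets tested, 23.9% were higher and 41.1% lower there, with a median of -0.1484. ANGPTL4, a lipoprotein lipase inhibitor, averaged 9.11 at 1 dpn and 5.23 at 94 dpc, which was background, so 3.88 ± 0.29 is a lower limit (adjusted p = 4.2e-13). CPT1A, the entry of fatty acids into mitochondria, was higher by 2.40 ± 0.15 (5.1e-15) and DIO1, the hepatic deiodinase, by 2.05 ± 0.12 (5.1e-16). PPARA, the receptor of fatty acid oxidation and outside the name rule, averaged 7.60 at 1 dpn against a background level of 5.14 at 94 dpc (2.46 ± 0.23 as a lower limit, 8.4e-11) and fell to 5.62 at 28 dpn (-1.97 ± 0.23, 1.1e-08), likewise background. PPARA and ANGPTL4 entered these comparisons through their higher stage, so their p-values are not free of that choice. In period II 4 of 12 listed genes were higher and 4 lower, beside 28.5% higher and 39% lower among all probe-sets. The LXR targets ABCA1, a cholesterol exporter, and MYLIP, which degrades the LDL receptor, moved apart there, by -1.31 ± 0.14 (1.1e-09) and 1.15 ± 0.13 (4.5e-09), while NR1H3 was higher. In period III 5 of 13 were higher and 4 lower, beside 15.5% higher and 24.1% lower among all probe-sets. PDK4 changed by 1.43 ± 0.24 (1.6e-05) and ANGPTL4 by 1.25 ± 0.17 (5e-07).

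On the way from receptor to STAT, 4 of 12 genes tested were higher and 5 lower in period I, 4 of 11 higher and 2 lower in period II, and 1 of 11 higher and 7 lower in period III. Shares among all probe-sets were 23.9% higher and 41.1% lower in period I, 28.5% and 39% in period II, and 15.5% and 24.1% in period III. GHR, the growth hormone receptor, averaged 7.76 at 1 dpn against a background level of 5.59 at 94 dpc (2.17 ± 0.26 as a lower limit, adjusted p = 1.4e-08), and was higher again by 1.02 ± 0.16 at 28 dpn (1.8e-06) and by 0.45 ± 0.12 at 188 dpn (0.0039). GHR entered period I through the newborns, so its p-value there is not free of that choice. EPOR, the erythropoietin receptor, was lower at 1 dpn by -1.59 ± 0.14 (7.9e-12), beside the fall of the erythroid markers. The kinase TYK2 dipped at 1 dpn as STAT5A did, with -0.90 ± 0.07 in period I (4e-12) and 0.87 ± 0.08 in period II (1.2e-10). IFNAR1, an interferon receptor chain, was lower at 28 dpn by -1.49 ± 0.16 (9.6e-10), and IFNGR1 was lower at 188 dpn by -0.71 ± 0.11 (4.7e-06).

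Other hepatic transcription factors outside the name rule were higher in 4, lower in 7 and not called in 7 of 18 cases in period I, and 9, 3 and 7 of 19 in period II. Of all probe-sets, 23.9% were higher and 41.1% lower in period I, and 28.5% and 39% in period II. EGR1, an early response gene, averaged 8.62 at 1 dpn and 11.36 at 94 dpc (-2.74 ± 0.31, adjusted p = 4.4e-09), and at 28 dpn it was higher by 1.65 ± 0.33 (5.1e-05). MYC was lower at 1 dpn by -1.68 ± 0.21 (2.3e-08). RORA, a clock-linked orphan receptor, was lower at 28 dpn by -1.61 ± 0.17 (9.7e-10), and SREBF2, the regulator of cholesterol synthesis, was higher by 1.39 ± 0.13 (1.9e-10), without overlap of newborns and piglets for either. In period III 3 of 18 were higher and 5 lower, beside 15.5% higher and 24.1% lower among all probe-sets. ATF5 changed by -1.53 ± 0.27 (3.7e-05) and DBP, a clock output factor, by 0.59 ± 0.15 (0.002).

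The animals of a stage differed among themselves about as much in these genes as in others. The median SD over the members tested was 0.32 in fetuses, 0.41 in newborns, 0.31 in piglets of 28 dpn and 0.35 in pigs of 188 dpn, beside 0.28, 0.39, 0.32 and 0.34 over all probe-sets tested. The newborns had the largest median in both sets. NR0B1 had an SD of 1.23 at 1 dpn, and STAT3 one of 0.13 at 94 dpc.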

How the data were processed

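The authors deposited 1 linear intensity per probe-set and array, scaled to a trimmed mean target of 500. The software named in the submitters' processing notes is GCOS 1.1.1. These are not the GCRMA values of the study's own tests. Of 24123 probe-sets, 124 controls were left out, and 23999 remained. Symbols came from the platform annotation, which names 1 gene for 10069 of them, several for 198 and none for 13732. Of the 99 members, 97 matched a RefSeq gene ID, with 0 changed symbols.

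Each intensity was raised by 16 and put on the log2 scale. Stages were taken from the labels. The 2 stages of each period were fitted with limma 3.58.1 in R 4.3.3, without covariates, because the labels give neither litter, sex nor weight. Animals were treated as independent although the study sampled sibs, so p-values may be too small. The moderated F test used all 60 arrays, and the script was tested on simulated data. A probe-set entered where it exceeded its array's median in 50% or more of the animals of either stage. The number of arrays limits the precision.

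In gene lists, a gene with several probe-sets was represented by the brightest, averaged over all 60 arrays. Named were members changed at least 2-fold or without overlap in a period, the member of highest mean signal in each family (used to choose names and not as a comparison of levels), HNF4A, CEBPA, CEBPB, FOXA2, NR1I2, RXRA, NR3C1, THRB and STAT3 in any case, and up to 4 list genes per list and period. Other members were named after their values were seen. Members and lists were chosen with earlier results of these data known. Alternatives tried were a pseudocount of 1 or 64, no filter or a stricter one, quantile normalization, median centring, leaving out the least correlated array per stage, the actin 3'/5' ratio as covariate, a trend in the prior variance, a fit to all 4 stages and 1 probe-set per gene.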

Additional observations from a re-analysis of the deposited data

How the results depend on the processing

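Of the 84 member changes called, 830 alternatives were computed: 748 kept direction and call, 78 lost the call and 4 changed sign, and 40 of the 84 lost the call at least once. Losses came with the actin ratio as covariate (31, of which 19 in period II), median centring (18), quantile normalization (13), no filter (7), leaving out the least correlated array per stage, which were animals 7, 6, 13 and 8 in order of age (4), the fit to all 4 stages (4) and a pseudocount of 1 (1), while a pseudocount of 64, the stricter filter and the trend took none (0), although 10 could not be computed under the stricter filter. The sign changed with the actin ratio in period II for CEBPD Ssc.10025.2.S1_at (-0.084), FOXRED1 Ssc.6582.3.A1_a_at (0.378), NR0B1 (-1.402) and NR5A2 Ssc.29043.1.S1_at (0.156). These 4 were not called there either (adjusted p = 0.91, 0.37, 0.27 and 0.76) and come on top of the 31 losses, 19 of them in period II. Counts moved by over 1.5 times as follows. With median centring, members lower numbered 9 in period I, 8 in period II and 6 in period III, and 34 were higher in period II. With the actin ratio, 9 were higher and 3 lower in period II and 6 lower in period III, and of the listed pathway genes 14 were higher and 5 lower in period II. In period II, 23 were lower without the filter, 9 with the stricter filter and 9 with 1 probe-set per gene, and quantile normalization left 5 lower in period III. The filters and the single probe-set change how many are tested; for the others the cause was not tested. No paired analysis was possible because the labels give neither litter nor any pairing. Weak signal limits the low genes: a change from background is a lower limit.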
